A study of Mus musculus with 12 samples.

Results

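The 10 genes described here encode transcription factors that guide T cell development: Tcf7, Lef1, Gata3, Bcl11b, Tcf12, Tcf3, Ets1, Ikzf1, Ikzf2 and Ikzf3. They were picked by symbol from the 24478 gene symbols of the tables, and all 10 passed the filter on low counts. Poly(A) RNA of mouse thymic tissue was measured in 12 libraries, with 4 groups of 3. The label of control tissue was T cells that express endogenous MYC only. T58A lymphomas and S62A lymphomas, which arose spontaneously in the thymus, carried the label of T cells that express only the ectopic MYC mutant of that name. S62A splenomegaly samples, here called splenomegaly masses, were thymic masses from S62A animals with an enlarged spleen, labelled as T and B cells with both ectopic S62A and endogenous MYC. MYC is a growth-promoting transcription factor, and each mutant replaces a phosphorylated residue with alanine. The strain, the age of the animals and the promoter or Cre behind the ectopic MYC were not given in the sources used here, nor was it said whether 3 libraries of a group meant 3 animals. P-values therefore measure only how far these libraries spread, which may be technical in part.

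Progenitors that enter the thymus receive Notch signals and switch on Tcf7 (encoding TCF-1) and Gata3, and then Bcl11b, which closes off other fates. E proteins, made from Tcf3 (E2A) and Tcf12 (HEB), drive receptor gene rearrangement and the pre-T cell receptor, while Lef1 shares work with TCF-1, and both can bind beta-catenin at Wnt target genes. Ets1 supports thymocyte survival and receptor expression, and the zinc finger proteins Ikaros (Ikzf1), Helios (Ikzf2) and Aiolos (Ikzf3) form dimers and act with the NuRD chromatin complex, Ikaros being a known tumour suppressor of T cell leukaemia.

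The stretches before the start sites of Tcf7, Lef1, Gata3 and Bcl11b are shown because these 4 genes had the largest falls in splenomegaly masses. They come from RefSeq on build GRCm38.p6, whose table held 7 of the 10 genes. Capitals mark the TCF/LEF core CTTTGA or the E-box CANNTG on either strand. The windows are chr11:52283156-52283185 for Tcf7 (30 bases, minus strand), chr3:131110047-131110296 for Lef1 (250 bases, plus strand), chr2:9878601-9878850 for Gata3 (250 bases, minus strand) and chr12:108003486-108003515 for Bcl11b (30 bases, minus strand).
Tcf7: cgcaccatgccgCAGCTGgactcgggcggg
Lef1: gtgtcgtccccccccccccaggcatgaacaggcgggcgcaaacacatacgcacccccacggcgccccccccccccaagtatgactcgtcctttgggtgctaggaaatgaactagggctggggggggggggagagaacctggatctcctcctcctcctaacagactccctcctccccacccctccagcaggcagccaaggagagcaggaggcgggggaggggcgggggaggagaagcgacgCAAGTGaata
Gata3: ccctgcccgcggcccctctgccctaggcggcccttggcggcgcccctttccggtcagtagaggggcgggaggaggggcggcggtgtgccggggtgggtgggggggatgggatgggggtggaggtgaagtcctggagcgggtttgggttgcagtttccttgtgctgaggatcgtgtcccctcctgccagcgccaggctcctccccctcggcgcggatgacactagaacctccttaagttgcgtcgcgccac
Bcl11b: agaggccaagcaCTTTGAagaagtgtgaga
Among the 250 bases before the start, Tcf7 and Lef1 each held 1 E-box, 159 and 10 bases before it, and Bcl11b held 1 CTTTGA, 89 bases before it. Gata3 had neither. Over 27025 promoters of the same length, 66.1% held CANNTG and 14.1% held CTTTGA, so these matches are a description of the letters only. The stretches lie before the start that the table lists, and whether they act as promoters was not tested. In the GENCODE vM21 transcripts of each gene, 203 of these 250 bases were found for Bcl11b and 0 for Tcf7, Lef1 and Gata3, but for Lef1 the first bases after the listed start were not found either. The Tcf7 stretch holds an ATG just before its E-box and may belong to a longer transcript than those listed.

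Summed over genes, depth ran from 9577373 reads in splenomegaly mass 2 to 22437969 in control 3. The spread between libraries within a group, as a coefficient of variation estimated by edgeR, was lowest in controls (17.2%), then 28% in splenomegaly masses, 41.1% in T58A lymphomas and 45% in S62A lymphomas. Controls 1 and 2 were closest to each other, with a chi-square per degree of freedom of 2.76 over genes, where other pairs within a group had 19.8 to 123 and sampling noise alone gives about 1. The labelled cell type was checked with 10 T cell markers. Their summed CPM (reads scaled to library size) was 8580 to 8710 for controls, 2740 to 3920 for T58A lymphomas, 2440 to 3930 for S62A lymphomas and 989 to 1090 for splenomegaly masses. Against control 7, 8 and 9 of the 10 fell in the last 3 groups, where 17.4, 22.2 and 26.3% of all genes fell. The sum rests mostly on Thy1 and Lck in controls and lymphomas. Splenomegaly masses against S62A lymphomas gave 1 rise and 2 falls (median log2 fold change −0.22). Against T58A lymphomas they gave 0 rises and 2 falls (−0.08). S62A lymphoma 3 stood lowest in several of these markers, with Cd3d at 7.0 CPM against 81.2 and 48.0 in the other S62A lymphomas. In bulk tissue, fewer cells of a type and less RNA per cell cannot be told apart.

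Tcf7 (chromosome 11 from 52065785 to 52096516, mm9, minus strand) was by far the most abundant of the 10 genes in controls and in both lymphoma groups, and it was far lower in splenomegaly masses. It stood at 4172, 4041 and 4178 CPM in controls 1 to 3, at 4623, 4765 and 3672 in T58A lymphomas and at 5597, 5393 and 4641 in S62A lymphomas. In splenomegaly masses it stood at 149, 122 and 189 CPM. The first 3 groups lay within a narrow band, with every S62A lymphoma above every control, and every splenomegaly mass far below all of them. Against control the log2 fold change was −4.75 ± 0.20 (SE, adjusted p = 1.55e-07), a 26.9-fold fall. Against control, neither T58A lymphomas (0.08 ± 0.17, adjusted p = 0.76) nor S62A lymphomas (0.34 ± 0.17, adjusted p = 0.14) passed the test. Ranked by CPM among all genes, Tcf7 held place 1 to 3 in every control and lymphoma library and place 1042 to 1946 in splenomegaly masses.

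Per transcript length, Tcf7 had 1890 ± 28.1 FPKM (SD, n = 3) in controls. T58A lymphomas had 1950 ± 251 FPKM, S62A lymphomas 2230 ± 212 and splenomegaly masses 65.0 ± 13.3. FPKM is reads scaled to transcript length and library. It made up 65.6 to 75.8% of the summed FPKM of the 10 genes in control and lymphoma libraries, and 11.6 to 17.5% in splenomegaly masses. In splenomegaly masses Ikzf1, at 97.7 ± 12.5 FPKM, had the highest mean of the 10, and its range overlapped that of Ets1, next in order. In controls the order after Tcf7 was Ets1, Ikzf1, Lef1, Tcf12, Tcf3, Bcl11b, Gata3, Ikzf3 and Ikzf2. Among these neighbours only Lef1 with Tcf12, Tcf12 with Tcf3 and Gata3 with Ikzf3 overlapped in their libraries.

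**Figure D1:**
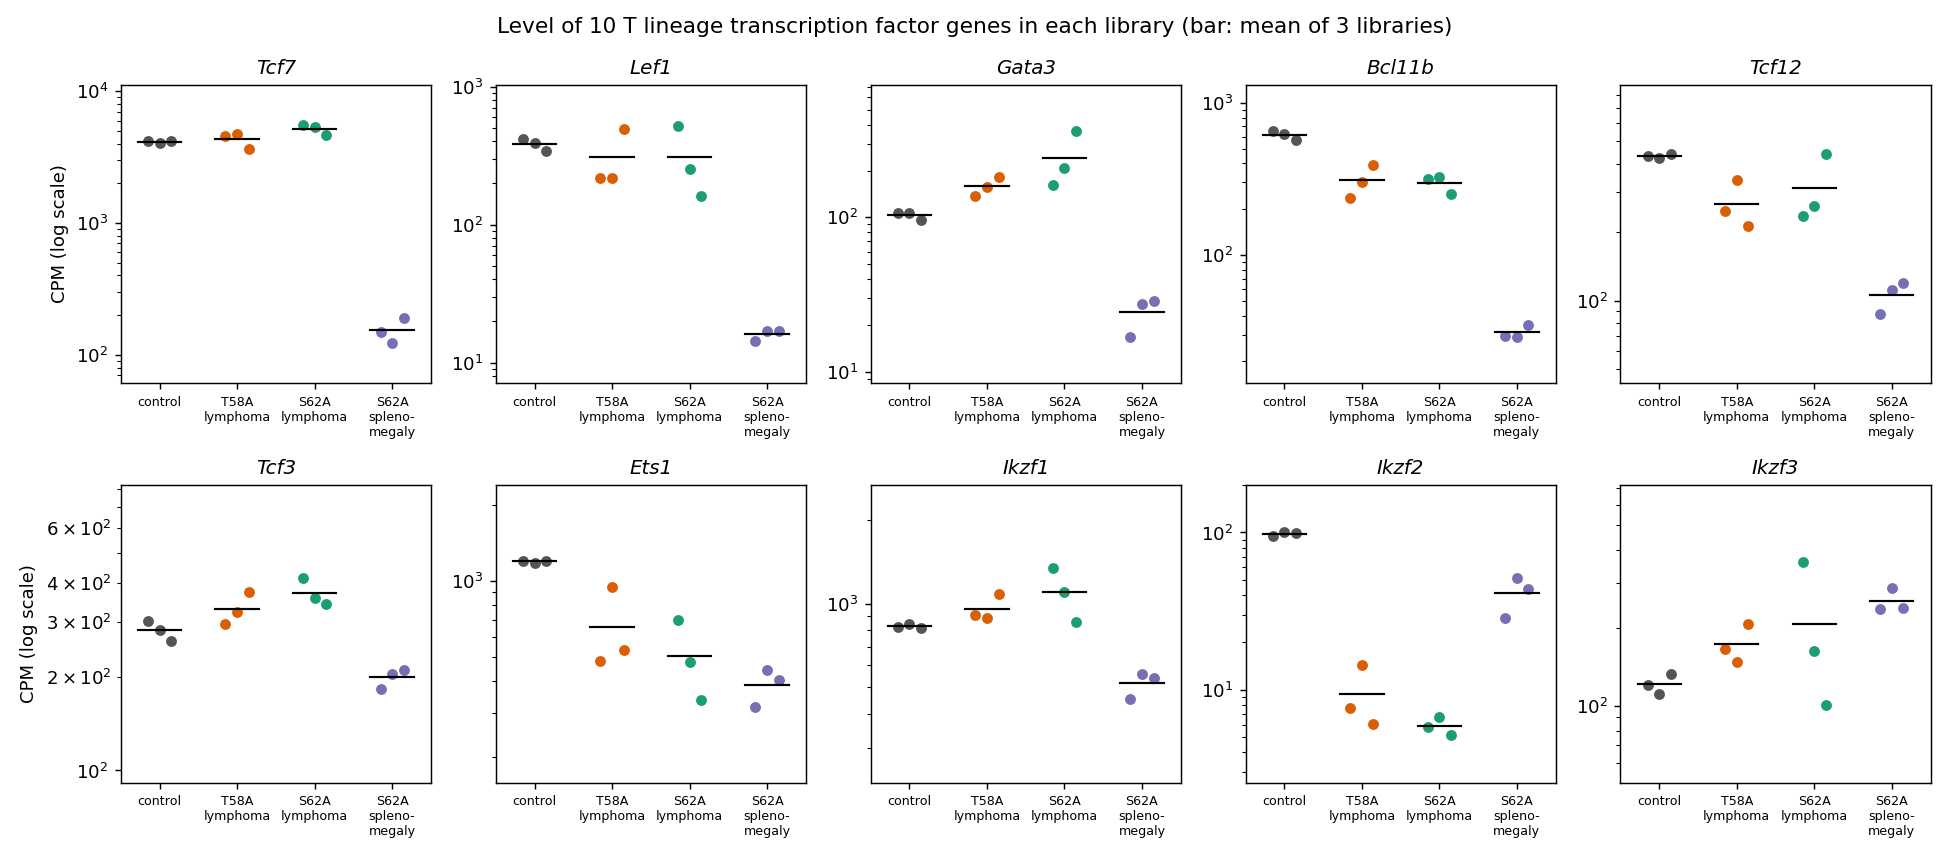
CPM on a log scale (each panel has its own range) for the 10 genes, with 1 point per library and a bar at the mean of 3. Tcf7, Lef1, Gata3, Bcl11b, Tcf12, Tcf3 and Ikzf1 stood lowest in all 3 splenomegaly masses, while Ikzf2 stood lowest in the lymphomas.

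In T58A lymphomas against control, 4 of the 10 genes fell and 0 rose, where 17.4% of the 15606 genes tested fell, 18.8% rose and 36.2% passed in either direction. In S62A lymphomas 2 of the 10 rose, against 21.9% of all genes, and 3 fell, against 22.2% (44.1% in either direction). In splenomegaly masses 1 rose, against 22.9% of all genes, and 9 fell, against 26.3% (49.2% in either direction). Libraries did not overlap with controls for 7 of the 10 genes with T58A lymphomas (60.0% of all genes), 7 with S62A lymphomas (60.3%) and 10 with splenomegaly masses (70.5%). The members' median log2 fold change was −0.12, 0.01 and −1.83 in that order, beside 0.01, 0.0 and −0.08 over all genes. These comparisons share their control libraries, so their values stand side by side only.

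The groups with ectopic MYC were also compared with each other. Between the lymphoma groups, S62A against T58A, 0 of 10 members passed in edgeR and 0 in DESeq2, while 0.859% of all genes rose and 2.29% fell (3.15% in either direction). There 1 member, Gata3, had an unadjusted p under 0.05, as had 3654 of the 15606 genes (23.4%), and the libraries of all 10 members overlapped (21.0% of all genes did not overlap). Splenomegaly masses against S62A lymphomas gave 1 rise, against 25.6% of all genes, and 7 falls, against 28.6% (54.3% in either direction). Against T58A lymphomas they likewise gave 1 rise, against 20.5%, and 7 falls, against 24.6% (45.1% in either direction). Libraries did not overlap for 8 members in the first of these comparisons (58.1% of all genes) and 10 in the second (56.0%).

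**Figure D2:**
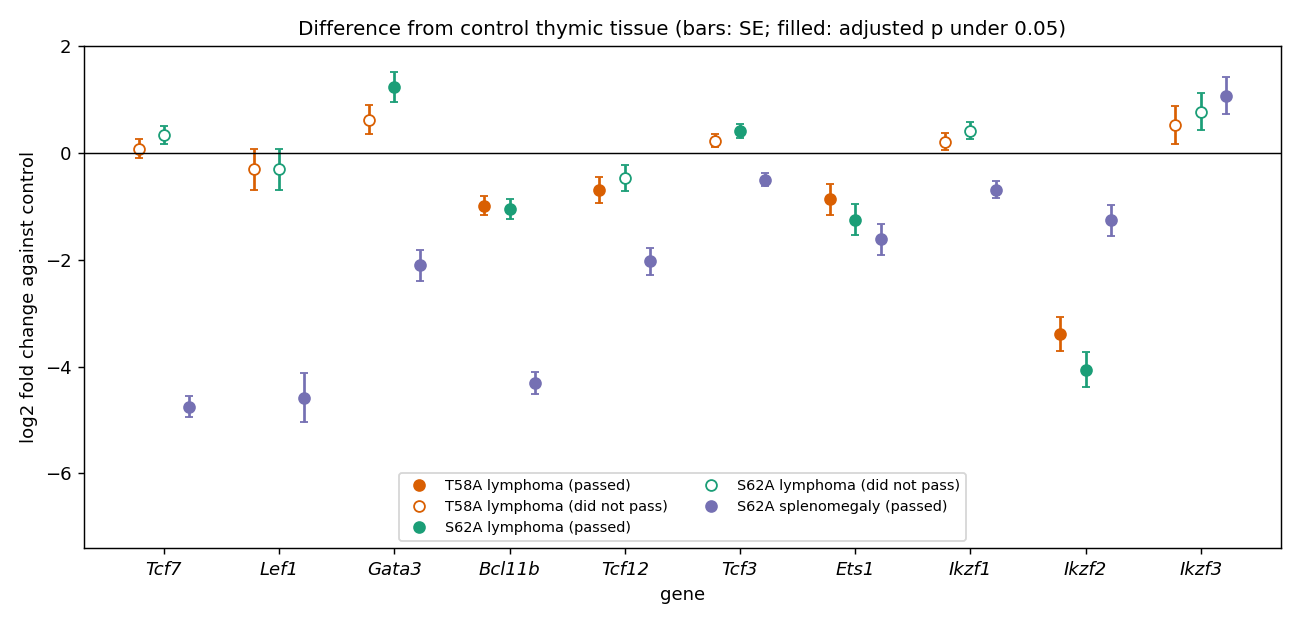
Log2 fold change against control with its SE for the 10 genes in the 3 other groups, with filled points for adjusted p under 0.05. The largest falls in splenomegaly masses were those of Tcf7 (−4.75), Lef1 (−4.58) and Bcl11b (−4.31), and the largest in lymphomas those of Ikzf2 (−3.39 and −4.06).

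Lef1 (chromosome 3 from 130813215 to 130927275), which encodes the close relative of TCF-1, also stood far lower in splenomegaly masses, and varied widely among lymphomas. Controls stood at 418, 391 and 341 CPM, T58A lymphomas at 219, 216 and 492, and S62A lymphomas at 514, 251 and 161. Splenomegaly masses held 14.2, 16.8 and 17.0 CPM. The lymphoma libraries spread 2.27-fold and 3.18-fold around the control range, so lymphomas and controls overlapped. Splenomegaly masses fell by 4.58 ± 0.46 (log2, adjusted p = 2.24e-05), and T58A and S62A lymphomas each differed from control by −0.31 ± 0.39 (adjusted p = 0.565 and 0.546). The log2 ratio of Lef1 to Tcf7 per length was −3.92 ± 0.16 (SD) in controls and −3.70 ± 0.33 in splenomegaly masses (exact two-sided permutation p = 0.5, adjusted p = 0.545 over 12 ratio comparisons). The ratio was −4.41 ± 0.88 in T58A lymphomas (exact permutation p = 0.4) and −4.73 ± 0.72 in S62A lymphomas (exact permutation p = 0.2). Groups of 3 cannot give an exact p under 0.1.

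Of 13 tested cofactors and relatives of TCF-1 and LEF-1, 3 rose and 2 fell in T58A lymphomas, 3 rose and 2 fell in S62A lymphomas, and 1 rose and 5 fell in splenomegaly masses. These 5, 5 and 6 of 13 stand beside 36.2, 44.1 and 49.2% of all genes, and the list medians were 0.35, 0.06 and −0.15, so the list is described by its single genes. Ctnnb1, the gene of beta-catenin, rose from 568 ± 10.9 CPM to 1130 ± 85.5 in T58A lymphomas (adjusted p = 0.000209) and 1120 ± 136 in S62A lymphomas (adjusted p = 0.00015). Ctnnbip1 also rose in T58A lymphomas (log2 fold change 1.13, adjusted p = 0.00103) and S62A lymphomas (0.94, adjusted p = 0.00237). Tle2 and Aes, of the Groucho corepressor family, fell in all 3 groups, Aes from 820 ± 32.5 to 390 ± 31.3, 407 ± 37.5 and 340 ± 53.8 CPM. Other genes of that family differed. Tle3 rose in S62A lymphomas (0.45, adjusted p = 0.0327) and fell in splenomegaly masses (−0.69, adjusted p = 0.00373). Tle6 fell in splenomegaly masses only, and Tle1 and Tle4 did not pass against control. Among 10 Wnt feedback genes, whose transcription beta-catenin and TCF proteins raise, 8 rose and 0 fell in T58A lymphomas (median log2 fold change 6.19), and 8 rose and 1 fell in S62A lymphomas (6.02). In splenomegaly masses 1 rose and 2 fell (median −0.28). Over all genes, 18.8, 21.9 and 22.9% rose and 17.4, 22.2 and 26.3% fell in T58A lymphomas, S62A lymphomas and splenomegaly masses. The 3 of 10 that passed in splenomegaly masses are thus a smaller share than the 49.2% of all genes.

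The Wnt feedback genes were at low levels in controls. Axin2, a scaffold that degrades beta-catenin, stood at 31.6, 32.2 and 27.3 CPM in controls and at 297, 290 and 371 in T58A lymphomas. It stood at 422, 288 and 224 CPM in S62A lymphomas and at 9.39, 9.78 and 10.7 in splenomegaly masses. Every lymphoma was thus above every control, and every splenomegaly mass below. Nkd1, an inhibitor of the pathway, went from 2.98 ± 0.20 CPM in controls to 366 ± 156 in T58A lymphomas (adjusted p = 2.78e-06) and 569 ± 76.8 in S62A lymphomas (adjusted p = 1.08e-06). Rnf43 was the member that fell in S62A lymphomas, from 12.6 ± 1.86 to 2.39 ± 2.23 CPM. Lgr5, the member that rose in splenomegaly masses, reached only 1.16 ± 0.834 CPM from 0.188 ± 0.0902, and no gene of the list rose there by the FPKM fit.

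Gata3 (chromosome 2 from 9778705 to 9800227), needed from the earliest T cell stages and later for CD4 cells, moved in opposite directions in S62A lymphomas and splenomegaly masses. Controls stood at 107, 108 and 96.6 CPM, T58A lymphomas at 138, 158 and 183, and S62A lymphomas at 163, 209 and 362. Splenomegaly masses held 16.9, 27.3 and 28.5 CPM. All 6 lymphomas were above all controls and all splenomegaly masses below, with S62A lymphoma 3 the highest. The rise in S62A lymphomas was 1.24 ± 0.28 (adjusted p = 0.00433) and the fall in splenomegaly masses −2.10 ± 0.29 (adjusted p = 0.000161). In T58A lymphomas the value of 0.62 ± 0.27 did not pass (adjusted p = 0.0959), although it did in a fit of the 2 groups alone (0.65, adjusted p = 0.00661).

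Bcl11b (chromosome 12 from 109148613 to 109241624), the commitment factor, was lower in all 3 groups. Controls stood at 655, 626 and 567 CPM, T58A lymphomas at 237, 302 and 391, and S62A lymphomas at 314, 328 and 250. Splenomegaly masses held 29.6, 28.9 and 34.9 CPM. The groups did not overlap with control, and the splenomegaly masses lay far under the lymphomas, which overlapped each other. T58A lymphomas fell by 0.99 ± 0.18 (adjusted p = 0.00166), S62A lymphomas by 1.05 ± 0.18 (adjusted p = 0.000912) and splenomegaly masses by 4.31 ± 0.20 (adjusted p = 3.57e-07). With control 3 alone against the T58A lymphomas, the libraries that share the letter H in their titles, the change of −0.86 did not pass (adjusted p = 0.18). All S62A libraries carry another letter than any control, so letter and group cannot be told apart there.

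Of 19 further regulators of the T lineage tested, 5 rose and 2 fell in T58A lymphomas, 6 rose and 4 fell in S62A lymphomas, and 6 rose and 8 fell in splenomegaly masses. These are 7, 10 and 14 of 19, where 36.2, 44.1 and 49.2% of all genes passed, with list medians of 0.17, 0.07 and −0.13. Satb1, a chromatin organiser of thymocytes, fell in splenomegaly masses from 2360 ± 63.0 to 28.8 ± 7.6 CPM (adjusted p = 0.000156), and Myb from 976 ± 46.3 to 26.4 ± 8.19 CPM (adjusted p = 4.76e-06). Nfatc1, a calcium-regulated factor, fell from 60.2 ± 1.89 CPM to 15.6 ± 3.57 in T58A lymphomas and 12.8 ± 3.7 in S62A lymphomas, and rose to 112 ± 11.2 in splenomegaly masses. Runx1, whose protein pairs with CBF-beta, rose in S62A lymphomas from 150 ± 9.45 to 385 ± 81.2 CPM (adjusted p = 0.00177). T58A lymphomas held 291 ± 84.6 CPM of Runx1, each above all controls, and splenomegaly masses 59.9 ± 18.7, each below all controls. Bcl11a, a paralog of Bcl11b used by B cells and other lineages, rose in splenomegaly masses from 5.43 ± 0.931 to 58.9 ± 14.5 CPM (adjusted p = 0.000724).

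The E protein genes Tcf12 and Tcf3 diverged. Tcf12 (chromosome 9 from 71692059 to 71959626) stood at 430, 423 and 443 CPM in the controls, while T58A lymphomas held 247, 340 and 213, S62A lymphomas 237, 260 and 440, and splenomegaly masses 87.2, 112 and 119. Only S62A lymphoma 3 reached the control range. It fell by 0.70 ± 0.24 in T58A lymphomas (adjusted p = 0.0411) and by 2.03 ± 0.25 in splenomegaly masses (adjusted p = 8.14e-05). The change of −0.47 ± 0.24 in S62A lymphomas did not pass (adjusted p = 0.133). In T58A lymphomas the call was lost without control 1, 2 or 3, or T58A lymphoma 1 or 3 (−0.71 to −0.56, adjusted p = 0.0874 to 0.134), and in S62A lymphomas it was gained without S62A lymphoma 3 (−0.80, adjusted p = 0.00957).

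Tcf3 (chromosome 10 from 79871910 to 79896398) stood at 303, 282 and 261 CPM in controls, at 295, 322 and 375 in T58A lymphomas and at 414, 357 and 342 in S62A lymphomas. Splenomegaly masses held 183, 204 and 211 CPM. S62A lymphomas lay above and splenomegaly masses below all controls, and T58A lymphomas overlapped controls. The rise in S62A lymphomas was 0.40 ± 0.13 (adjusted p = 0.0253) and the fall in splenomegaly masses −0.50 ± 0.13 (adjusted p = 0.00701). The rise lost its call when libraries were scaled by size alone (0.30, adjusted p = 0.0866), by FPKM (0.30, adjusted p = 0.0761), and without control 2 or 3 or S62A lymphoma 1 (0.31 to 0.39, adjusted p = 0.0751 to 0.0983). Transcript rows of Tcf3 differed little: relative to the row with most reads, the 3 lowest rows held 91.8 to 92.6% in controls and 94.9 to 97.2% in lymphomas.

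Set against each other per length, Tcf3 and Tcf12 were level in controls, with a log2 ratio of −0.03 ± 0.13 (SD). T58A lymphomas had a ratio of 0.92 ± 0.45, S62A lymphomas 0.89 ± 0.60 and splenomegaly masses 1.5 ± 0.13. Each group stood above all controls, with an exact two-sided permutation p = 0.1 (the smallest 3 against 3 allow) and an adjusted p = 0.15 over 12 comparisons. Tcf3 thus supplied 47.0 to 51.4% of the pair in controls and 72.6 to 75.9% in splenomegaly masses.

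**Figure D3:**
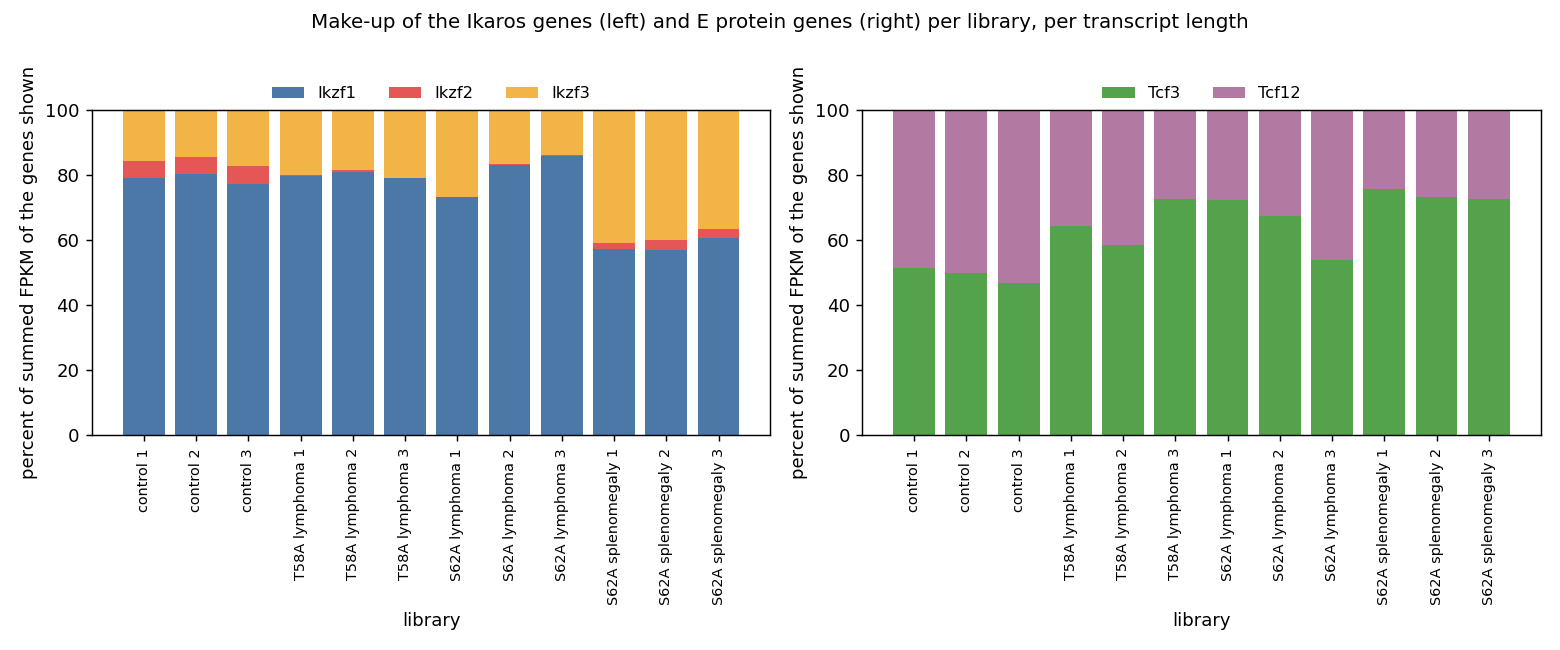
Percent of summed FPKM in each library for Ikzf1, Ikzf2 and Ikzf3 (left) and for Tcf3 and Tcf12 (right). Tcf3 held 47.0 to 51.4% in controls and 72.6 to 75.9% in splenomegaly masses, and Ikzf2 held 5.13 to 5.4% in controls and 0.178 to 0.737% in lymphomas.

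Genes that E proteins activate in thymocytes were lower in all 3 groups. Of 10 tested, 7 fell and 1 rose in T58A lymphomas (median log2 fold change −2.12), 8 fell and 1 rose in S62A lymphomas (−2.4), and 9 fell and 0 rose in splenomegaly masses (−6.0). Over all genes, 17.4, 22.2 and 26.3% fell in these groups. Ptcra, the pre-T cell receptor chain, had 0 reads in all 3 T58A lymphomas, at least 1030-fold lower than the 57.6 ± 5.75 CPM of controls with a floor of 3 reads over the group, and the list median was −2.12 with it at this bound. Rag1, which cuts receptor genes, went from 2240 ± 166 CPM in controls to 0.903 ± 0.36 in splenomegaly masses (adjusted p = 3.57e-07). Gfi1, a transcriptional repressor, was the gene that rose, to 384 ± 61.2 CPM in T58A lymphomas and 476 ± 136 in S62A lymphomas from 217 ± 10.3 in controls, and it fell to 19.9 ± 1.73 in splenomegaly masses. Notch1 fell from 282 ± 50.4 CPM to 18.3 ± 1.71 and 9.11 ± 2.73 in the lymphomas.

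Of 11 tested relatives and antagonists of E proteins, 3 rose and 2 fell in T58A lymphomas, 2 rose and 4 fell in S62A lymphomas, and 5 rose and 3 fell in splenomegaly masses. The 5, 6 and 8 of 11 that passed stand beside 36.2, 44.1 and 49.2% of all genes, and the medians were 0.18, −0.99 and 0.43. Id3, which blocks E proteins from DNA, fell from 170 ± 1.72 CPM to 68.3 ± 20.8 in T58A lymphomas (adjusted p = 0.0246), 18.7 ± 13.0 in S62A lymphomas (adjusted p = 0.000225) and 44.3 ± 8.88 in splenomegaly masses (adjusted p = 0.00258). Lmo2, a LIM protein that joins E protein complexes in T cell leukaemia, rose from 7.73 ± 0.479 CPM to 47.5 ± 15.9, 17.9 ± 4.32 and 128 ± 27.6 in the same groups. Tcf4, the remaining E protein gene, rose to 231 ± 60.4 CPM in splenomegaly masses from 58.7 ± 1.67 in controls (adjusted p = 2.3e-05). It rose less in T58A lymphomas (log2 fold change 0.61 ± 0.19, adjusted p = 0.0298) and S62A lymphomas (0.55 ± 0.19, adjusted p = 0.04). Ldb1, which bridges such complexes, fell in all 3 groups.

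Ets1 (chromosome 9 from 32503627 to 32565405) was lower in every group than in controls. Controls stood at 1201, 1181 and 1204 CPM, a range of 1.02-fold, T58A lymphomas at 482, 949 and 535, and S62A lymphomas at 699, 476 and 338. Splenomegaly masses held 317, 443 and 404 CPM. All 9 of these libraries were below all controls, and splenomegaly masses overlapped S62A lymphomas. The falls were −0.87 ± 0.29 in T58A lymphomas (adjusted p = 0.0356), −1.25 ± 0.29 in S62A lymphomas (adjusted p = 0.0056) and −1.62 ± 0.29 in splenomegaly masses (adjusted p = 0.00101). In T58A lymphomas the call was lost without control 1, 2 or 3, or T58A lymphoma 1 or 3 (−0.88 to −0.69, adjusted p = 0.0792 to 0.12). Splenomegaly masses against T58A lymphomas gave −0.76 ± 0.29, just outside the threshold (adjusted p = 0.0511), and passed when libraries were scaled by size alone (−0.83, adjusted p = 0.0354). It also passed on leaving out T58A lymphoma 1 (−0.94, adjusted p = 0.0304) or 3 (−0.89, adjusted p = 0.0484).

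Among 15 other ETS family genes, 1 rose and 4 fell in T58A lymphomas, 2 rose and 5 fell in S62A lymphomas, and 9 rose and 3 fell in splenomegaly masses. That is 5, 7 and 12 of 15, beside 36.2, 44.1 and 49.2% of all genes, with medians of −0.14, −0.02 and 0.62. Ets2 fell in splenomegaly masses from 761 ± 42.8 to 45.3 ± 5.46 CPM. Spi1 and Spib, the PU.1 and Spi-B genes of myeloid and B cells, rose there from 17.7 ± 2.7 to 199 ± 107 and from 33.9 ± 5.63 to 322 ± 38.6 CPM. Etv5 rose in T58A lymphomas from 9.75 ± 1.82 to 118 ± 26.6 CPM (adjusted p = 0.00194) and in S62A lymphomas to 142 ± 126 (adjusted p = 0.00105). The SD of Etv5 in S62A lymphomas was close to its mean.

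The Ikaros family moved in 3 ways. Ikzf1 (chromosome 11 from 11585928 to 11672929) stood at 827, 846 and 816 CPM in the controls, while T58A lymphomas held 911, 890 and 1080, S62A lymphomas 1347, 1104 and 862, and splenomegaly masses 450, 556 and 540. Lymphomas were all above controls, and splenomegaly masses all below. The fall in splenomegaly masses was −0.69 ± 0.16 (adjusted p = 0.00526), and neither lymphoma group passed (0.21 ± 0.16, adjusted p = 0.335 and 0.41 ± 0.16, adjusted p = 0.0602), S62A lymphomas passing without S62A lymphoma 3 (0.56, adjusted p = 0.0113).

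Ikzf2 (chromosome 1 from 69577784 to 69732534), the Helios gene, was the member that fell furthest in lymphomas. Controls stood at 94.8, 101 and 99.9 CPM, T58A lymphomas at 7.62, 14.3 and 6.1, S62A lymphomas at 5.79, 6.75 and 5.13, and splenomegaly masses at 28.6, 51.6 and 43.4. The order was control, splenomegaly, lymphoma in every library, and the lymphoma groups overlapped. The log2 fold changes were −3.39 ± 0.32 in T58A lymphomas (10.5-fold, adjusted p = 3.47e-05), −4.06 ± 0.33 in S62A lymphomas (16.7-fold, adjusted p = 1.04e-05) and −1.26 ± 0.29 in splenomegaly masses (adjusted p = 0.00459). Splenomegaly masses were higher than T58A lymphomas by 2.13 ± 0.31 (adjusted p = 0.000307) and than S62A lymphomas by 2.80 ± 0.32 (adjusted p = 4.45e-05).

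Ikzf3 (chromosome 11 from 98326007 to 98407345), the Aiolos gene, was the member that rose in splenomegaly masses. Controls stood at 121, 111 and 133 CPM, T58A lymphomas at 166, 148 and 208, S62A lymphomas at 360, 163 and 100, and splenomegaly masses at 237, 287 and 240. Splenomegaly masses were all above controls and above T58A lymphomas, while S62A lymphomas ran from below the controls to the highest library of all. The rise in splenomegaly masses was 1.07 ± 0.35 (adjusted p = 0.0272) and lost its call without control 1, 2 or 3 or splenomegaly mass 2 (0.97 to 1.13, adjusted p = 0.0558 to 0.0855). T58A lymphomas gave 0.52 ± 0.35 (adjusted p = 0.271), which passed in a fit of the 2 groups alone (0.54, adjusted p = 0.0229). S62A lymphomas gave 0.77 ± 0.35 (adjusted p = 0.0956), with a range of 0.12 to 1.11 when a library was left out, and passed without S62A lymphoma 3 (1.11, adjusted p = 0.00908). Against S62A lymphomas, splenomegaly masses differed by 0.29 ± 0.35 (adjusted p = 0.499), and by 0.95 (adjusted p = 0.00492) without S62A lymphoma 1.

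Per length, the make-up of the Ikaros family followed these values. The log2 ratio of Ikzf2 to Ikzf1 was −3.89 ± 0.05 (SD) for controls, −7.45 ± 0.71 with T58A and −8.15 ± 0.28 with S62A lymphomas, while splenomegaly masses held −4.47 ± 0.27. Each group lay below all controls (exact permutation p = 0.1, adjusted p = 0.15). The ratio of Ikzf3 to Ikzf1 was −2.33 ± 0.16 in controls and −0.58 ± 0.13 in splenomegaly masses (exact permutation p = 0.1). Ikzf3 made up 36.5 to 40.8% of the family's FPKM in splenomegaly masses and 14.3 to 17.1% in controls. Of 15 Ikaros relatives and NuRD subunits tested, 2 rose and 0 fell in T58A lymphomas, 6 rose and 0 fell in S62A lymphomas, and 0 rose and 6 fell in splenomegaly masses. Of all genes 36.2, 44.1 and 49.2% passed, and the list medians were 0.15, 0.29 and −0.53. Chd4, the remodelling motor of NuRD, rose from 440 ± 5.79 CPM to 719 ± 169 in S62A lymphomas (adjusted p = 0.00647). In T58A lymphomas Chd4 rose to 609 ± 86.3 CPM, only just within the threshold (adjusted p = 0.0498). Hdac2, a deacetylase subunit, fell to 85.2 ± 7.43 in splenomegaly masses from 195 ± 8.88 (adjusted p = 1.52e-05).

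**Figure D4:**
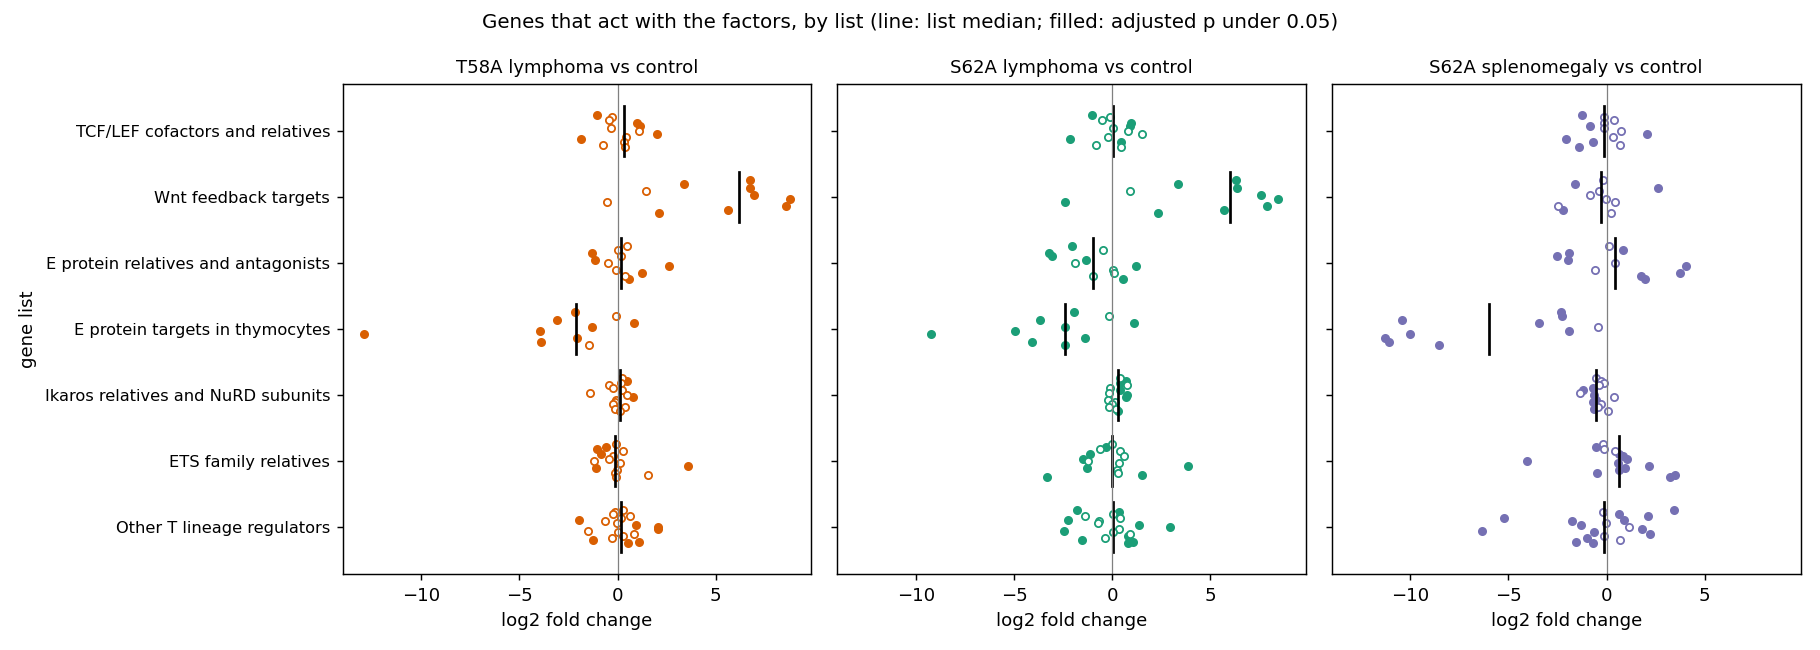
Log2 fold change against control for single genes of 7 lists (points, filled for adjusted p under 0.05) with the list median (line). The Wnt feedback genes had medians of 6.19 and 6.02 in the lymphomas and −0.28 in splenomegaly masses; the lowest point in T58A lymphomas is Ptcra, fitted at 0 reads and no measured bound.

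Markers of double-positive thymocytes and of other cell types are set beside these differences, and not every list moved. Double-positive thymocyte markers (10 genes) summed to 9690 to 11000 CPM for controls, 3890 to 4550 for T58A lymphomas, 2660 to 4400 for S62A lymphomas and 323 to 358 for splenomegaly masses, with 6, 8 and 10 of 10 falling. B cell markers (10 genes) summed to 83.2 to 87.5, 37.2 to 437, 30.5 to 48.8 and 2030 to 2700 CPM in the same order. Of the B cell markers 5 rose and 0 fell in T58A lymphomas, 0 rose and 4 fell in S62A lymphomas, and all 10 rose in splenomegaly masses. Macrophage markers (9 genes) summed to 645 to 749, 1880 to 2640, 1580 to 2260 and 4430 to 8030 CPM, with 7, 7 and 9 of 9 rising. Thymic epithelium markers (9 genes) summed to 2250 to 2470, 104 to 145, 14.9 to 35.7 and 69.2 to 76.5 CPM, with 5, 9 and 8 of 9 falling. None of the B cell, macrophage or epithelium markers was at 0 reads in a whole group, and of the double-positive markers only Ptcra was, in T58A lymphomas. Granulocyte markers (8 genes) summed to 133 to 215, 68.0 to 208, 1.78 to 6.87 and 6.1 to 74.3 CPM in the same order, with 0, 0 and 0 of 8 rising and 1, 8 and 3 falling, and with Ly6g and Elane at 0 reads in S62A lymphomas. Fibroblast and endothelium markers (8 genes) summed to 295 to 333, 538 to 1610, 307 to 1260 and 632 to 1070 CPM, and 4, 3 and 6 of 8 rose. Natural killer markers (6 genes) summed to 72.2 to 105, 4.66 to 32.5, 12.9 to 79.6 and 87.3 to 145 CPM, with 1 of 6 falling in each group and 0, 0 and 2 rising. Erythroid markers (6 genes) summed to 163 to 214, 77.98 to 283, 35.2 to 106 and 169 to 1620 CPM, with 1 of 6 falling in S62A lymphomas. Over all genes, 18.8% rose and 17.4% fell in T58A lymphomas, 21.9% rose and 22.2% fell in S62A lymphomas, and 22.9% rose and 26.3% fell in splenomegaly masses. Counts near these shares, such as 1 of 6, are no result about a list. For none of these lists was the part in the changes of the 10 genes tested.

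**Figure D5:**
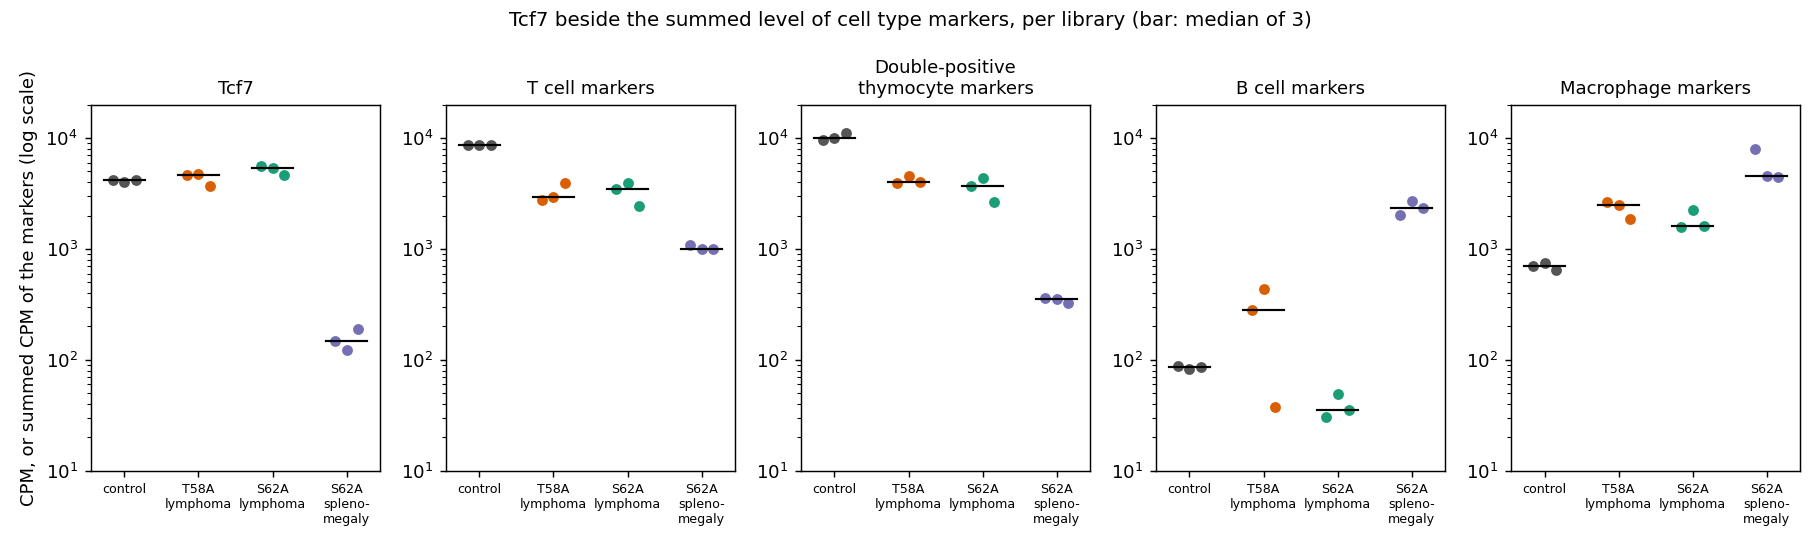
CPM of Tcf7 and summed CPM of 4 marker lists per library on a log scale, with a bar at the median of 3. In splenomegaly masses Tcf7 (122 to 189) and the double-positive thymocyte markers (323 to 358) were low where B cell (2030 to 2700) and macrophage markers (4430 to 8030) were high.

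The genes most like each member in pattern were sought among 10400 genes with a mean of at least 10 CPM, by the root mean square difference of standardised log2 CPM over the 12 libraries (in SD units, smaller is more alike). Tcf7 was closest to Cd27 (0.165) and Myb (0.168), Bcl11b to Themis (0.144) and Gata3 to Lin9 (0.106). Myb stood at 976, 1090, 1300 and 26.4 CPM on average in controls, T58A lymphomas, S62A lymphomas and splenomegaly masses. Themis, a T cell receptor signalling gene, stood at 612, 270, 249 and 13.4 CPM. Ikzf2 was closest to Gbp8 (0.109), with means of 327, 17.1, 8.13 and 118 CPM. Tcf3 was closest to Zfp266 (0.159), Ikzf1 to Cep41 (0.158), Tcf12 to Elp6 (0.216), Ets1 to Atp9b (0.263) and Ikzf3 to Rcbtb1 (0.266).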

How the data were processed

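For every RefSeq transcript the authors deposited raw counts of reads. They also deposited FPKM values, scaled to transcript length and library. The submitters' processing notes name Bowtie 1.0.0, bcl2fastq 2.20.0.422, DESeq2 and build mm9; the counting tool and strand setting were not given in the sources used here. Trizol RNA was made into directional poly(A) libraries, per the labels' protocols. Member positions are those of the tables on mm9, with starts assumed to be counted from 0 and printed counted from 1. Each gene took the transcript row with most reads over the 12 libraries. Counts were fitted in R 4.3.3 with edgeR 4.0.16 (TMM, filterByExpr at minimum count 10, quasi-likelihood, group as the only term, all 12 libraries, 15606 genes). P-values were adjusted by Benjamini and Hochberg over all genes, with a threshold of 0.05. FPKM ratios used a pseudocount of 0.1 and exact permutation tests. Alternatives were DESeq2 1.42.0, library size only, no filter, the mean of transcript rows, FPKM with limma 3.58.1, 2-group fits, and leaving out libraries. The genes named from lists are, per comparison with control, up to 2 risen and 2 fallen with the smallest adjusted p; likeness named 3 genes per member, of which the closest are given, except for Lef1, whose result is not reported here. Members, lists and tests were chosen with earlier results of these data known. The fit was tested on simulated counts in which 200 genes changed by a log2 value of 1.5. It recovered 68% of them, with 6 false calls. The simulated spread was below that of the lymphoma groups, so recovery at their spread was not tested. Each library was counted as a replicate. Within groups, libraries differed beyond sampling noise, which does not show that they came from separate animals. Depth ran from 9577373 to 22437969 reads; floors cover counting error only.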

Additional observations from a re-analysis of the deposited data

Results flagged for a closer look

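Gata3 and Tcf3 each passed the test in opposite directions in S62A lymphomas and in splenomegaly masses, set against the same control libraries. Both were picked for that, so a difference between those groups follows from the choice. The p-values and the order of libraries below are therefore no separate support, and the values describe the size only. Splenomegaly masses differed from S62A lymphomas by −3.34 ± 0.30 for Gata3 (edgeR adjusted p = 1.06e-05) and by −0.90 ± 0.13 for Tcf3 (edgeR adjusted p = 0.000177), with all 3 masses below all 3 lymphomas for both genes. Without any 1 library, the Gata3 difference ran from −3.57 to −2.95 and the Tcf3 difference from −0.96 to −0.79.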

How the results depend on the processing

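No paired analysis was possible because the labels give no replicate numbers that groups share. Leaving out 1 library at a time gave 328 values of the same direction and call, 17 that lost and 6 that gained a call and 9 of opposite sign; the other settings gave 415, 6, 7 and 2. The number of members called ran from 2 to 4 in T58A lymphomas against control and from 4 to 8 in S62A lymphomas against control when a library was left out. It was 1 with the H-titled libraries alone (control 3 against the T58A lymphomas), where the lone control is assumed to vary like the rest. There Bcl11b, Tcf12 (−0.72) and Ets1 (−0.87) lost their calls, the falling E protein targets went from 7 to 4 and all genes called from 5646 to 413. Every reversal was of a value that had not passed. Between the lymphoma groups, Lef1 was 0.0 with no filter and −0.58 to 0.51 with a library left out (0.51, 0.13 and 0.31 where it reversed). In that comparison Bcl11b ran from −0.22 to 0.14 (0.05 without S62A lymphoma 3), Tcf12 from −0.10 to 0.44 and Ikzf3 from −0.40 to 0.59, with −0.0 by FPKM. Tcf7 in T58A lymphomas ran from −0.01 to 0.19, Ikzf3 in splenomegaly masses against S62A lymphomas from −0.04 to 0.95, and the Ikzf3 to Ikzf1 ratio in S62A lymphomas against control from −0.16 to 0.44. The cause of these changes was not tested. Between the lymphoma groups, all genes called numbered 492, against 1785 with DESeq2, 282 by FPKM with a pseudocount of 1, 0 in the 2-group fit and 139 to 783 without 1 library. Scaling by library size alone moved the median of all genes in splenomegaly masses from −0.08 to −0.19, and FPKM to −0.21. A pseudocount of 1 shrank the falls of Ikzf2 to −2.61 and −2.92 in the lymphomas, and its excess in splenomegaly masses over S62A and T58A lymphomas to 1.70 and 1.39. With 3 libraries a group, small differences of the variable genes were not resolved.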
